A study of Homo sapiens with 10 samples.

Results

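The genes described here are the G1 cyclins, their kinases and members of the RB family, 10 of the 17492 genes measured: CCND1, CCND2, CCND3, CCNE1, CCNE2, CDK2, CDK4, CDK6, RB1 and RBL1. They were taken by gene symbol from the array annotation, and each had 1 probe set. The tissue was A375 tumours, grown under the skin of BALB/c nude mice from a human melanoma cell line. Such mice lack a thymus and mature T cells but keep innate immune cells. Both groups carried tumour cells with doxycycline-inducible Omomyc, a dominant-negative fragment of MYC. Doxycycline was in the drinking water of 1 group of 5 and vehicle in that of the other 5. Treatment began once tumours measured 100 mm3 and lasted 7 days. The sources used here do not give the mice's ages, the promoter of the Omomyc construct or whether the line is 1 clone. No doxycycline-treated tumour without Omomyc was analysed, so Omomyc and doxycycline itself cannot be told apart.

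Cells pass from G1 into DNA synthesis when cyclin-dependent kinases phosphorylate the RB proteins and release E2F transcription factors. The D cyclins, induced by growth signals, activate CDK4 and CDK6. Cyclin E, itself an E2F target, then activates CDK2 and completes the phosphorylation. The INK4 proteins bind CDK4 and CDK6, and the CIP/KIP proteins act on CDK2. MYC is known to drive this step through genes such as CCND2 and CDK4, and melanomas often carry lesions in the INK4, cyclin D and CDK4 part of the pathway.

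Promoter sequences are shown for the member that changed, CCNE1, and for the 2 members whose listed promoter held an E-box or an E2F site. They are the 250 bases before the transcript start, on the gene's strand, from RefSeq (GRCh38.p14). CCNE1 lies on the plus strand at chr19:29811741-29811990, CDK4 on the minus strand at chr12:57752311-57752560, and RBL1 on the minus strand at chr20:37095998-37096247. Capitals mark GC boxes in CCNE1, E-boxes in CDK4 and E2F sites in RBL1.
CCNE1: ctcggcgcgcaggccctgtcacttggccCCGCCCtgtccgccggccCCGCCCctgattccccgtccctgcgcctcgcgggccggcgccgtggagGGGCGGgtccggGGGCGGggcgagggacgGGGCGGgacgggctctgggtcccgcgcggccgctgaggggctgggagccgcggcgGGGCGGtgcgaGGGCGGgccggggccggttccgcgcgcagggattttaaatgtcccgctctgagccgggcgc
CDK4: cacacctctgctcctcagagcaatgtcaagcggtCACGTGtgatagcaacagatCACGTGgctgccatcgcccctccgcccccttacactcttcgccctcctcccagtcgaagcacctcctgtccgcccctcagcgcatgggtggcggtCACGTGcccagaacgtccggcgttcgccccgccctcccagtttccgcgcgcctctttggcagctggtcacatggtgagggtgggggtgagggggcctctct
RBL1: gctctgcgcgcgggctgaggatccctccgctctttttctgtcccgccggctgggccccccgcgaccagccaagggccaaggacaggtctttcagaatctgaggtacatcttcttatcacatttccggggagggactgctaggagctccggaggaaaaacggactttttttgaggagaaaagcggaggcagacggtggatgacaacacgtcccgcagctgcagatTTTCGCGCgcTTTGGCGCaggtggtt

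The motifs below were searched on both strands: the E-box CACGTG, which MYC with MAX binds, the E2F site (TTTCCCGC, TTTCGCGC, TTTGCCGC or TTTGGCGC) and the GC box GGGCGG. The CDK4 window held 3 E-boxes, beginning 216, 196 and 101 bases before the start. At least 1 E-box was present in 6.34% of all 35116 listed promoter windows of that length, and 3 or more in 0.0797%. The RBL1 window held 2 E2F sites, 26 and 16 bases before the start, against 2.79% of windows with at least 1 and 0.122% with 2 or more. The CCNE1 window held 7 GC boxes and neither of the other motifs in these letters. GC boxes were in 42.6% of windows, and 7 or more in 1.12%. Entries were found for 6 of the 10 members, with 9 starts in all, and CCND1, CCND2, CCNE2 and CDK2 had none. The RB1 entry lay 172699 bases inside the gene's outermost start. CCND3 starts 1, 2 and 3 lay 1347, 108227 and 110830 bases inside theirs, and CDK6 start 2 lay 2614 bases inside. A match is only a match of letters.

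**Figure D1:**
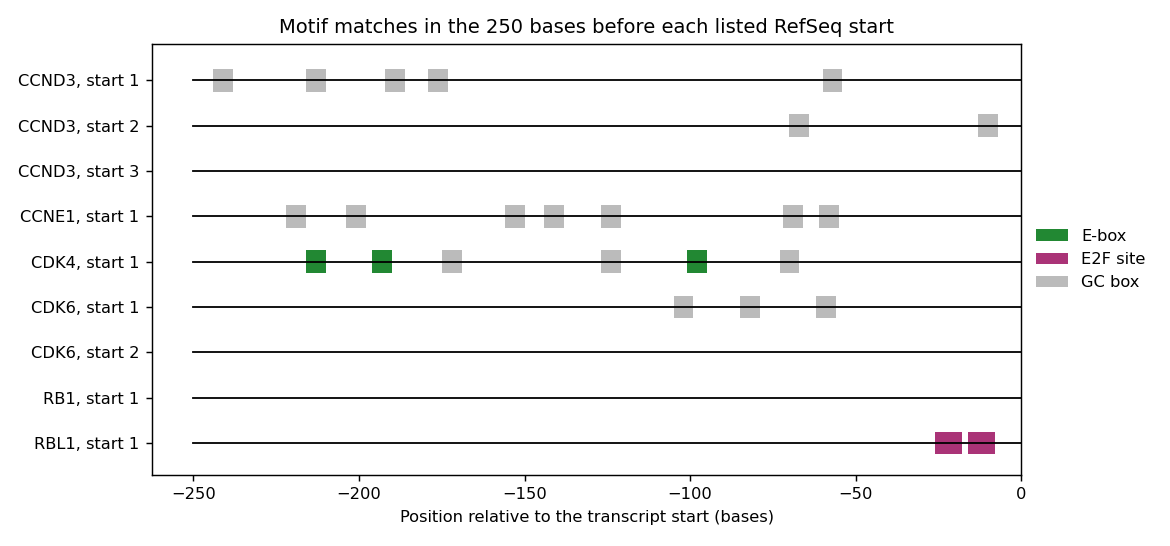
Motif matches in the 250 bases before each of the 9 listed starts, by position relative to the start in bases; each bar is 1 match. E-boxes appear only in the CDK4 window, E2F sites only in the RBL1 window, and GC boxes are spread over CCND3, CCNE1, CDK4 and CDK6.

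CCNE1 rose in the doxycycline tumours, and it was the only member past the threshold of an adjusted p of 0.05 (limma, Benjamini-Hochberg over all 17492 genes). The other 9 members did not pass. The share of all genes called was 11.0%, 5.03% higher and 5.95% lower, so 1 call among 10 members is near that background. Without adjustment, 3 members were higher and 3 lower at a p below 0.05, 6 of 10 against 24.6% of all genes (12.5% higher and 12.1% lower). The higher ones were CCND1, CCND3 and CCNE1, and the lower ones CDK2, CDK4 and CDK6. The median change, doxycycline minus vehicle, was -0.036 on the log2 scale over the members and 0.017 over all genes. All values below are log2 expression values of RMA, which are comparable between arrays for a gene but not between genes. In bulk tissue, fewer cells of a type and less RNA per cell cannot be told apart.

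**Figure D2:**
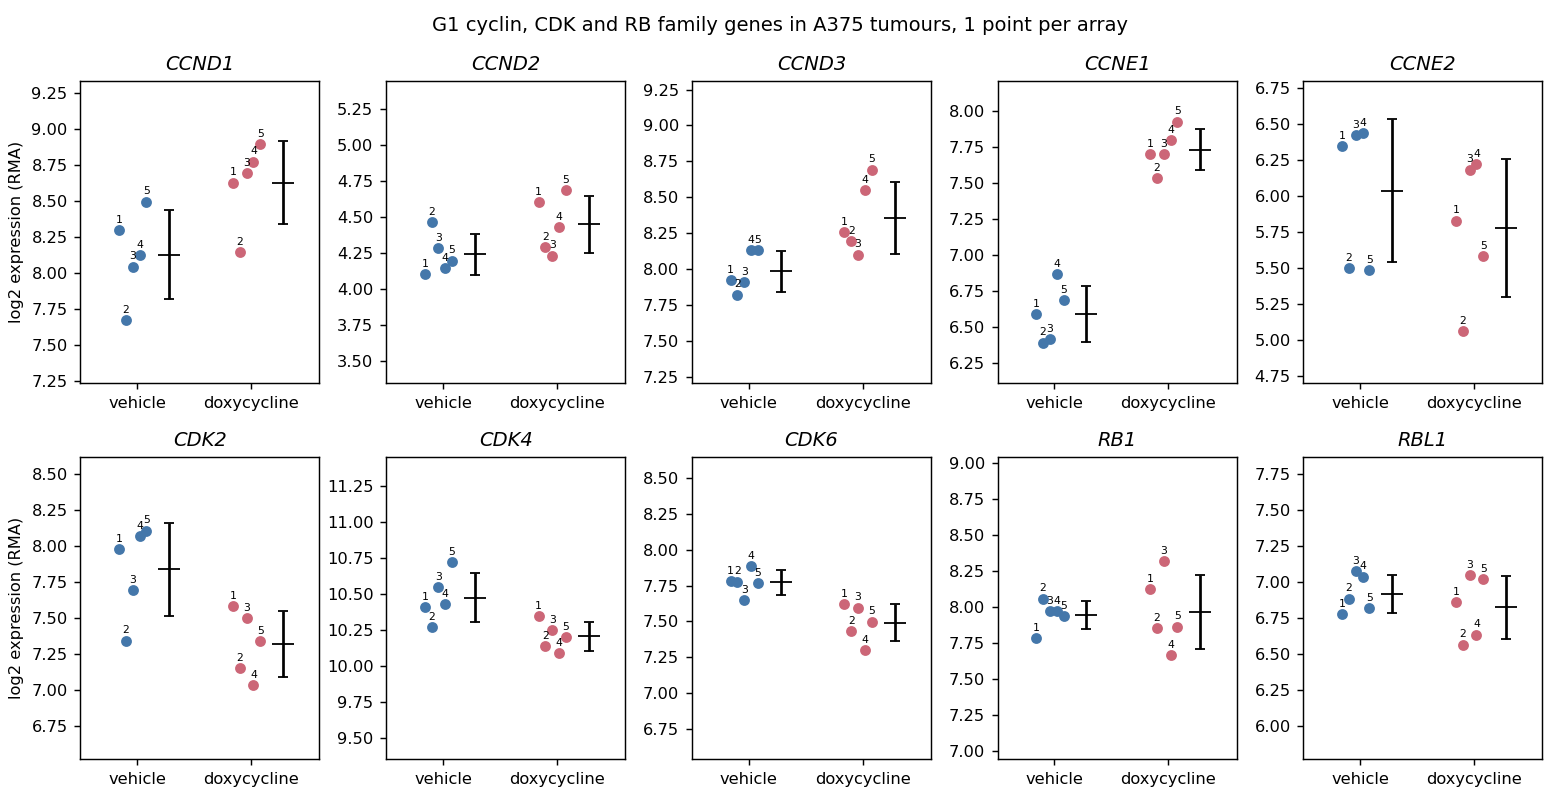
Log2 expression (RMA) of each gene in the 5 vehicle and 5 doxycycline arrays, numbered by replicate; all panels span the same number of log2 units, and bars show mean and SD. The CCNE1 groups are separate, with vehicle arrays at 6.39 to 6.87 and doxycycline arrays at 7.53 to 7.93.

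Of the cyclin E genes, which encode the partners of CDK2, CCNE1 stood at 6.59, 6.39, 6.42, 6.87 and 6.69 in vehicle arrays 1 to 5. In doxycycline arrays 1 to 5 it stood at 7.70, 7.53, 7.70, 7.80 and 7.93. Every doxycycline array lay above every vehicle array. The rise was 1.14 (SE 0.13, 95% CI 0.86 to 1.42), or 2.21-fold, from 6.59 ± 0.20 to 7.73 ± 0.14 (SD, n = 5 each, limma, adjusted p = 0.000219). Over 20 alternative settings its adjusted p lay between 7.50e-06 and 0.00337.

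CCNE2, the second cyclin E gene, was at 6.35, 5.501, 6.43, 6.44 and 5.48 in vehicle arrays 1 to 5. In the doxycycline arrays it was at 5.83, 5.06, 6.18, 6.22 and 5.58. The groups overlapped, and arrays 2 and 5 were the lowest of both groups. Its difference was -0.26 (95% CI -0.84 to 0.32, limma, adjusted p = 0.613), with SDs of 0.50 and 0.48 that were the widest among the members in each group. With single arrays left out the CCNE2 difference ranged from -0.40 without vehicle array 5 to -0.083 without doxycycline array 2, and it did not pass in any of these fits.

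The change was unequal between the cyclin E genes. Within an array, CCNE1 minus CCNE2 was 0.24, 0.89, -0.0093, 0.43 and 1.20 in the vehicle tumours and 1.87, 2.47, 1.52, 1.57 and 2.34 in the doxycycline tumours. The groups did not overlap. The mean difference was higher by 1.40 (SE 0.29) with doxycycline. An exact two-sided permutation test over the 252 splits gave its smallest possible p, 0.00794, or 0.0476 adjusted over the 6 paralog pairs tested. The adjusted p was 0.0952 without doxycycline array 1, 2 or 5. The groups still did not overlap there, but at unequal group sizes the opposite extreme split gave a slightly larger difference. Without doxycycline arrays 4 and 5 together it was 0.107, and too few splits then remain for a single pair to pass alone. These values therefore do not show that the result rests on those arrays.

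The other 5 pairs did not pass this test. CCND1 minus CCND2 differed between the groups by 0.29 (SE 0.22, adjusted p = 0.417, exact permutation test), CCND1 minus CCND3 by 0.13 (SE 0.15) and CCND2 minus CCND3 by -0.17 (SE 0.14). RB1 minus RBL1 differed by 0.11 (SE 0.10). CDK4 minus CDK6 averaged 2.70 ± 0.21 with vehicle and 2.71 ± 0.05 with doxycycline (SD over 5 arrays), a difference of 0.011 (SE 0.097) with an adjusted p of 0.921 by the exact permutation test. The spread of that pair was narrow among the doxycycline arrays, 2.65 to 2.79, inside the vehicle range of 2.49 to 2.95.

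**Figure D3:**
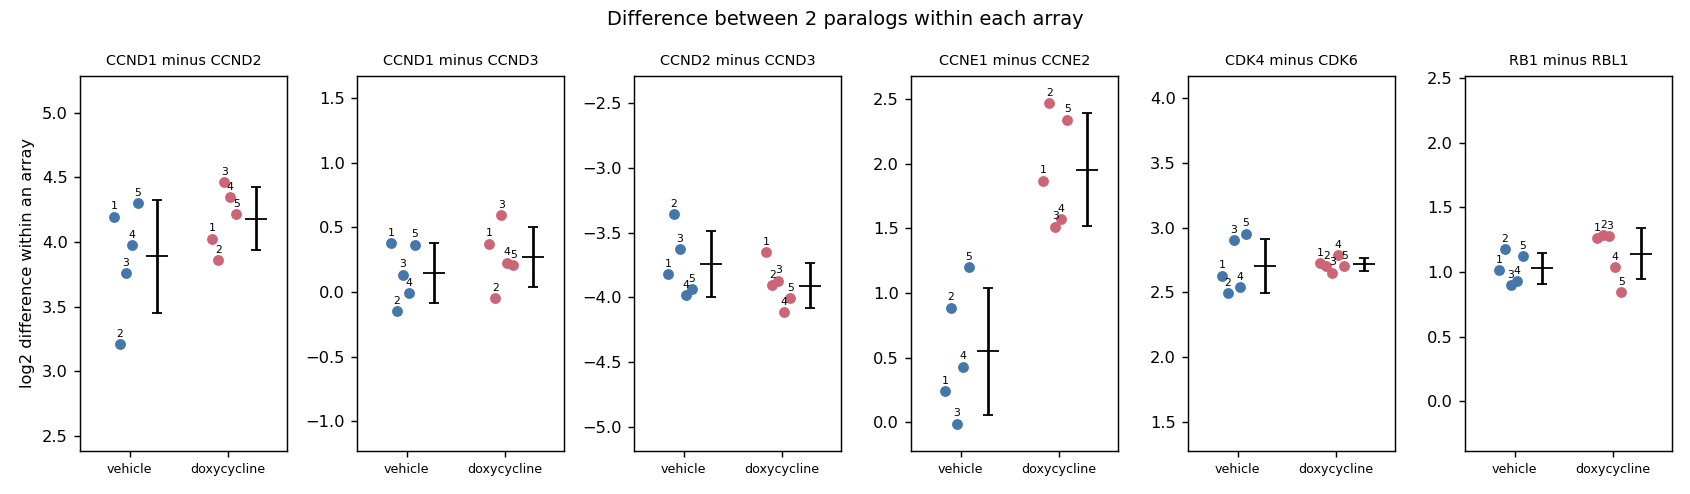
Log2 difference between 2 paralogs within each array, for 6 pairs and 5 arrays per group; numbers mark replicates, and bars show mean and SD. CCNE1 minus CCNE2 is at most 1.20 in vehicle and at least 1.52 in doxycycline arrays, and the groups of the other pairs overlap.

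The D cyclins, the growth-signal-dependent partners of CDK4 and CDK6, all had positive differences, and none passed. CCND1 was at 8.30, 7.67, 8.05, 8.13 and 8.50 in vehicle arrays 1 to 5 and at 8.63, 8.15, 8.70, 8.78 and 8.90 in the doxycycline arrays. Doxycycline arrays 1, 3, 4 and 5 lay above all vehicle arrays, while array 2 lay among them. The difference was 0.50 (95% CI 0.11 to 0.89, limma, adjusted p = 0.100). Without doxycycline array 2 it was 0.62 and passed (adjusted p = 0.0405). With any other single array left out it did not pass (limma, adjusted p = 0.0673 to 0.204). Without doxycycline arrays 4 and 5 together it was 0.36 (limma, adjusted p = 0.306).

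CCND3 was at 7.93, 7.82, 7.91, 8.13 and 8.13 in vehicle arrays 1 to 5. With doxycycline it was at 8.26, 8.20, 8.10, 8.55 and 8.69. Again 4 doxycycline arrays exceeded all vehicle arrays, array 3 being the exception. The difference was 0.37 (95% CI 0.07 to 0.68, limma, adjusted p = 0.117), and doxycycline arrays 4 and 5 were the highest.

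CCND2, which MYC is known to activate directly, ranged from 4.11 to 4.47 in vehicle and from 4.23 to 4.69 in doxycycline arrays. The groups overlapped, with 2 doxycycline arrays above all vehicle arrays. The difference was 0.21 (95% CI -0.07 to 0.49, limma, adjusted p = 0.359), so the interval reached no lower than a decrease of 0.07. However, the vehicle mean of CCND2, 4.24, lay near 3.92, the level below which the dimmest 30% of genes fell. Whether that level limited the difference that could be seen was not tested.

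The G1 kinase genes all had negative differences, and none passed. CDK2, the partner of cyclin E, was at 7.98, 7.34, 7.69, 8.07 and 8.10 in vehicle arrays 1 to 5 and at 7.58, 7.15, 7.50, 7.03 and 7.34 in doxycycline arrays. The groups overlapped because vehicle array 2 was low. CDK2 differed by -0.52 (95% CI -0.89 to -0.14, limma, adjusted p = 0.0766). Without vehicle array 2 the difference was -0.64 and passed (adjusted p = 0.0256), and it also passed once the dimmest genes were removed (adjusted p = 0.0496). With any other single array left out it did not pass (limma, adjusted p = 0.0704 to 0.163). In 17 of 20 alternatives CDK2 stayed not called.

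CDK6, a kinase activated by D cyclins, was at 7.78, 7.78, 7.65, 7.89 and 7.77 in vehicle arrays 1 to 5. In the doxycycline arrays it was at 7.62, 7.44, 7.60, 7.30 and 7.50. Every doxycycline array lay below every vehicle array, by a narrow gap between doxycycline array 1 and vehicle array 3. The difference was small, -0.28 (95% CI -0.52 to -0.04, limma, adjusted p = 0.131). CCNE1 and CDK6 were the 2 members whose groups did not overlap, 2 of 10 against 11.8% of all genes. By direction that is 1 higher against 5.38% and 1 lower against 6.43%.

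CDK4, the second D-cyclin kinase and the gene with 3 E-boxes in the window shown above, was at 10.41, 10.27, 10.55, 10.43 and 10.72 in vehicle arrays 1 to 5. It was at 10.35, 10.14, 10.25, 10.09 and 10.20 in doxycycline arrays. Only doxycycline array 1 was not below all vehicle arrays. The difference was -0.27 (95% CI -0.53 to -0.01, limma, adjusted p = 0.180). The interval leaves out a decrease of more than 0.53.

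The number of members called depended on how the variances were moderated. With a trend of variance on level and robust estimation, 5 members passed. CCND1 and CCND3 joined CCNE1 as higher (adjusted p = 0.0340 and 0.0468), and CDK2 and CDK4 were lower (adjusted p = 0.0283 and 0.0403). That setting called 14.4% of all genes, in place of 11.0%, with 6.86% higher and 7.52% lower.

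**Figure D4:**
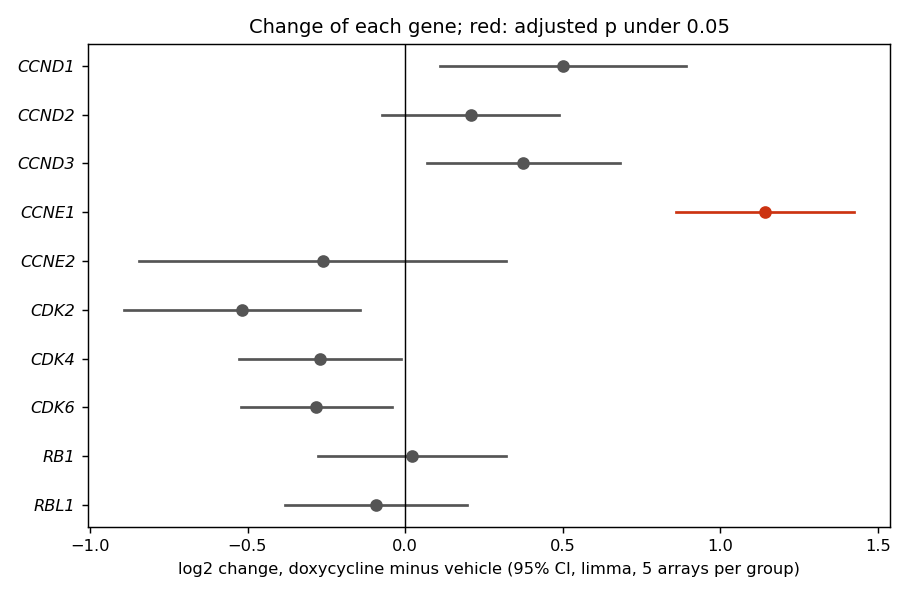
Change of each gene, doxycycline minus vehicle, on the log2 scale with its 95% confidence interval from limma (5 arrays per group); red marks an adjusted p under 0.05. CCNE1 lies at 1.14 with an interval of 0.86 to 1.42, and the other 9 genes lie between -0.52 and 0.50.

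The pocket proteins, which hold E2F factors in check, showed little difference in level. RB1, the retinoblastoma gene, was at 7.79, 8.06, 7.97, 7.97 and 7.94 in vehicle and at 8.13, 7.85, 8.32, 7.67 and 7.87 in doxycycline arrays 1 to 5. The doxycycline arrays spread to both sides of the vehicle arrays, with SDs of 0.26 and 0.099. The difference was 0.021 (95% CI -0.28 to 0.32, limma, adjusted p = 0.950). RBL1, which encodes p107 and carried 2 E2F sites in its window, ranged from 6.78 to 7.08 in vehicle and from 6.57 to 7.05 in doxycycline arrays. Its difference was -0.093 (95% CI -0.38 to 0.20, adjusted p = 0.736). RBL2, which encodes the related p130 and is no member, differed by 0.027 (95% CI -0.29 to 0.35, adjusted p = 0.938).

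Downstream of the pocket proteins, the list of E2F factors, their DP partners and RBL2 had 2 of 11 measured genes lower and 0 higher, with a median change of 0.027. E2F5, a repressive E2F that works with p107 and p130, was at 7.61, 6.47, 6.96, 6.99 and 6.99 in vehicle arrays 1 to 5 and at 4.79, 4.98, 3.98, 4.87 and 3.56 in doxycycline arrays. The groups were far apart. E2F5 fell by 2.57 (95% CI -3.19 to -1.94, limma, adjusted p = 0.000195), a 5.93-fold decrease. TFDP1, which encodes the DP1 partner of the E2Fs, fell by 0.58 (95% CI -0.85 to -0.30, adjusted p = 0.0116), with every doxycycline array below every vehicle array. The activator E2F1 differed by 0.43 (adjusted p = 0.187), E2F2 by 0.20 and E2F3 by -0.35. E2F4 differed by 0.15, E2F6 by -0.46, E2F7 by 0.16, E2F8 by -0.46 and TFDP2 by 0.045, and none of these passed.

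Among the inhibitors of the kinases, 1 of 6 measured genes was higher and 0 lower, with a median change of 0.090. CDKN1A, which encodes the CDK inhibitor p21, was at 7.93 to 8.75 in vehicle and 9.81 to 10.68 in doxycycline arrays and rose by 1.78 (95% CI 1.36 to 2.20, limma, adjusted p = 0.000158). CDKN1B and CDKN1C, which encode p27 and p57, differed by -0.25 and 0.42. The INK4 genes CDKN2A, CDKN2B and CDKN2D differed by -0.30, -0.074 and 0.25, and none passed. CDKN2C was not analysed here. CDKN2A stood at 5.88, 5.79 and 5.83 in doxycycline arrays 1 to 3 but at 6.63 and 6.76 in arrays 4 and 5, against 6.30 to 6.68 in vehicle. In the main fit its adjusted p was 0.415 (limma), and with single arrays left out it was 0.152 to 0.627. Only 1 of 20 alternatives called it lower, the fit without arrays 4 and 5 (change -0.64, limma, adjusted p = 0.0102). Those were its 2 highest doxycycline arrays, so their removal lowers the mean in any case, and no fall is read from it.

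Genes that E2F is known to switch on for DNA synthesis were lower in part. Of 25 measured, 10 were lower and 0 higher, with a median change of -0.52. CCNA2, the cyclin of S phase, fell by 0.73 (95% CI -1.07 to -0.40, limma, adjusted p = 0.00968), and ORC1, a subunit of the origin recognition complex, fell by 0.75 (adjusted p = 0.0162). UHRF1, which maintains DNA methylation, fell by 0.56 (adjusted p = 0.0173). The clamp loader subunit RFC4 fell by 0.52 (limma, adjusted p = 0.0198), a call that was lost without vehicle array 3 (change -0.48, adjusted p = 0.0562). The count of lower genes was sensitive to single arrays. It was 5 when vehicle array 1 or 5 was left out and 4 when vehicle array 3 or 4 was. Leaving out doxycycline array 2 gave 4 and array 4 gave 6. A covariate made from stromal markers, described with its limits at the end, gave 5. With unequal variances and no moderation it was 4.

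Some cyclins and regulators of the later cycle were lower. Of the 15 genes for A- and B-type cyclins, CDK1, CDK activators and CKS subunits, 7 were lower, 0 higher and 8 not called, with a median change of -0.70. CDC25B, a phosphatase that activates CDKs, fell by 1.08 (95% CI -1.38 to -0.78, limma, adjusted p = 0.000487), and CDK1, the mitotic kinase, fell by 0.99 (adjusted p = 0.00197). CDC25C fell by 0.98 and CKS2 fell by 0.78. CCNA2 is in this list and in the E2F targets. The proliferation markers moved with these lists. All 6 of 6 were lower, and their summed log2 level was 50.3 to 52.4 in vehicle and 44.9 to 49.3 in doxycycline arrays. Their part in the result was not tested.

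In the list for the turnover of cyclin D, cyclin E and p27, 1 of 13 genes was lower and 0 higher, with a median change of -0.013. SKP2, which targets p27 for degradation, fell by 0.60 (95% CI -0.91 to -0.29, limma, adjusted p = 0.0189). The call was lost without vehicle array 4 (adjusted p = 0.0515), without doxycycline arrays 4 and 5 together (adjusted p = 0.0501) and with the stroma score (adjusted p = 0.0635). FBXW7, the ubiquitin ligase subunit for cyclin E, which was named after its value was seen, differed by -0.013 (adjusted p = 0.976).

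Of 7 genes for MuvB and DREAM partners, 1 was lower and 0 higher, with a median change of 0.020. FOXM1, a transcription factor of the G2 and mitosis genes, fell by 0.92 (95% CI -1.33 to -0.51, limma, adjusted p = 0.00851). Of 9 chromatin cofactors that bind RB, 1 was lower and 0 higher, with a median change of -0.070. SMARCA4, a SWI/SNF ATPase, fell by 0.71 (95% CI -0.99 to -0.42, adjusted p = 0.00438). Over all lists, 84 distinct genes were measured, of which 21 were lower and 1 higher. These counts stand beside 5.95% of all genes lower and 5.03% higher.

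**Figure D5:**
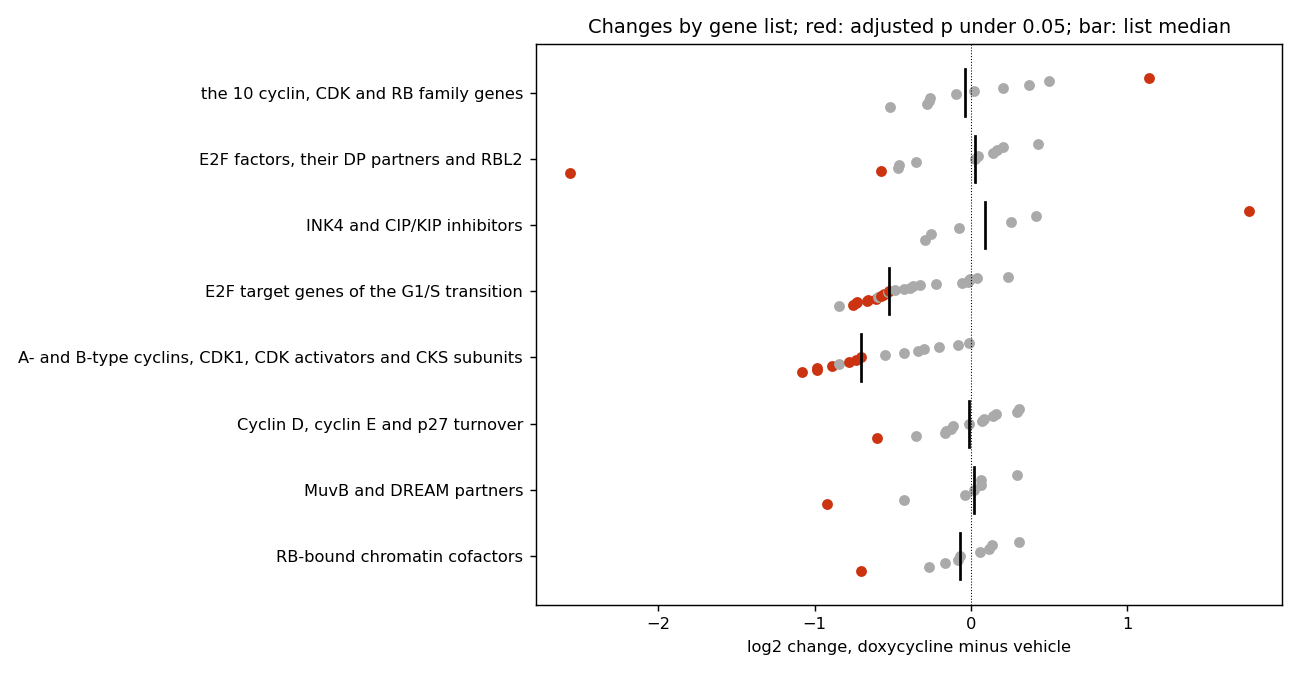
Change of each measured gene, doxycycline minus vehicle, on the log2 scale, for the members and the 7 lists of pathway genes; red marks an adjusted p under 0.05 and the vertical bar is the list median. CCNE1, CDKN1A and E2F5 stand away from the rest of their lists, while the E2F targets and the later cyclins have medians of -0.52 and -0.70.

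The 5 genes whose pattern over the 10 arrays was most like that of CCNE1 were found by the root mean squared difference of gene-centred log2 values. They were ABHD2, a hydrolase gene (0.124), SNAPC5, a subunit of a complex for small nuclear RNA transcription (0.142), SAMHD1, a dNTP hydrolase (0.150), SPTAN1, an alpha spectrin (0.156), and MDM2, the ubiquitin ligase of p53 (0.173). Their changes were 1.11, 1.02, 1.11, 0.94 and 1.13. The measure picks genes that rose by a like amount.

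Markers of cell types were set beside these results. Of 9 measured melanoma and melanocyte markers 0 were called, and PMEL, MLANA, TYR and TYRP1 were among the dimmest 30% of genes, while MITF, SOX10, S100B, S100A1 and GPM6B were not. S100B stood at 7.21 to 7.48 in doxycycline arrays 1 to 4 and at 5.06 in array 5, against 5.89 to 6.35 in vehicle. Of 10 macrophage and monocyte markers 2 were higher, LYZ by 1.28 and CD14 by 0.79, beside 5.03% of all genes called higher. The other 8 were not called. Their summed log2 level was 42.3 to 45.2 in vehicle and 45.7 to 50.6 in doxycycline arrays, without overlap. Endothelial, fibroblast and lymphocyte markers had 0 called of 8, 8 and 6. Of these, 5, 2 and 3 were among the dimmest 30% of genes, as were 3 of the macrophage markers. Such host cells are those of the mouse, read here by human probes, so these values do not measure host cell content. With the mean of the macrophage, endothelial and fibroblast markers as a covariate, CCNE1 changed by 1.15 (limma, adjusted p = 0.00158). E2F5 then changed by -2.23 (adjusted p = 0.000951) and CDKN1A by 1.76 (adjusted p = 0.00134). This mean, called the stroma score here, includes LYZ and CD14, which were themselves called. It does not measure host cell content, so a call kept or lost with it tells nothing about stroma. Correlations between arrays were 0.979 to 0.987 within vehicle, 0.965 to 0.985 within doxycycline and 0.954 to 0.974 between groups. Arrays 4 and 5 of the doxycycline group correlated least with their own group, and once both were left out CCNE1 changed by 1.06 (adjusted p = 0.00187).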

How the data were processed

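Total RNA of 10 tumours, 1 array each, was extracted with TRIzol and labelled with biotin, per the labels' protocols. Per probe set, the authors deposited log2 expression, and the submitters' processing notes name RMA. The sources used here give no array model, RMA version or genome build. Of 18569 probe sets, 17511 had 1 gene symbol in the platform annotation, 0 had several and 1058 had none. The highest-mean probe set stood for each of the 17 genes that had several, leaving 17492 genes. All gene identifiers matched the RefSeq table and 0 symbols changed.

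The group difference was fitted over all 10 arrays by limma (version 3.58.1, under R 4.3.3) with moderated variances (eBayes, two-sided, Benjamini-Hochberg adjustment, threshold 0.05). Paralog differences were compared by exact permutation. The procedure was tested on simulated data. The members and lists were chosen with earlier results of these data known. Genes named were every member, E2F factor and kinase inhibitor, up to 4 called genes with the smallest p per other list, and the 5 genes most like CCNE1. Alternatives changed the moderation, block, array weights, centring, normalization, filter, probe set rule, test, a stroma covariate and the arrays used. The number of arrays limits the precision. Mouse RNA of the host can hybridise to human probes. The labels call the tumours biological replicas. Same-numbered arrays of the groups had correlations of deviations of -0.0635 to 0.191. For numbers 2 and 5 (0.0786 and 0.191) the 2 arrays were each other's best match across the groups, and for 1, 3 and 4 they were not. The labels name no pairs, so the main fit did not use the numbers, and a fit with them as a block is given below.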

Additional observations from a re-analysis of the deposited data

Results flagged for a closer look

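Among 102 groups of 5 arrays checked, for the members, called list genes, E2F factors, kinase inhibitors and genes most like CCNE1, chance flags about 1 in 20, and 3 had an array that stood apart by Dixon's criterion of 0.710. None of the 20 groups of members did. CDKN1B was at 7.42 in vehicle array 2 against 6.60 to 6.79 in the other vehicle arrays. RRM1, a ribonucleotide reductase subunit among the E2F targets, was at 9.26 in vehicle array 4 against 8.90 to 8.97. UHRF1 was at 7.42 in doxycycline array 2 against 7.88 to 7.96.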

How the results depend on the processing

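CCNE1 kept its direction and its call under all 20 alternatives, with changes of 1.06 to 1.21. In place of 1 member called, there were 5 with trend and robust moderation, 2 once the dimmest genes were removed, and 1 to 2 with each array left out in turn. The share of all genes called also rose, from 11.0% to 14.4%, with trend and robust moderation. Once the dimmest genes were removed, more genes were called out of fewer tested. The 2 members called there therefore stand beside a share above 11.0%. With the replicate number as a block, 2 members passed, CCND1 being the added one (adjusted p = 0.0388), and the calls of the cyclin E pair and of SKP2 (adjusted p = 0.0509) were lost. The block called fewer genes over all genes than the main fit. The count of paralog pairs called was 1 and fell to 0 without doxycycline arrays 4 and 5 together, where too few splits remain for a single pair to pass alone. The count was also 0 with the replicate block, where sign-flips cannot give a p below 0.0625. It was 0 to 1 with each array left out. The 1921 genes called over all genes were 1374 to 1920 with an array left out. Values near 0 changed sign: RB1 was -0.068 to 0.096, RBL2 -0.056 to 0.13, TFDP2 -0.056 to 0.13 and CDKN2B -0.17 to 0.019 with an array left out, and CDK4-CDK6 was -0.041 to 0.074. Without doxycycline arrays 4 and 5, E2F7 was at -0.10, E2F8 at 0.027 and CDK4-CDK6 at -0.00895. With the stroma score E2F8 was at 0.041. The cause was not tested. Of 1110 recomputed values of single genes and pairs, 1017 kept direction and call, 68 lost the call, 9 gained it and 16 changed sign. Genes called higher were 578 in place of 880 with unequal variances and no moderation.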

Other observations

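CCNE2 was lowest in arrays 2 and 5 of both groups, with a clear gap to the others only among the vehicle arrays. Vehicle arrays 2 and 5 were at 5.501 and 5.484 and the other vehicle arrays at 6.35 to 6.44, and doxycycline arrays 2 and 5 were at 5.06 and 5.58 and the others at 5.83 to 6.22. E2F1 was likewise lowest in array 2 of both groups, at 5.35 and 5.71. The labels do not say that a number joins arrays of the groups.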
